A study of Mus musculus with 19 samples.

Results

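Fatty acid synthesis genes are described here in the abdominal aorta of AngII-infused mice. They are 10 genes, Fasn, Acaca, Acly, Scd1, Elovl6, Me1, Srebf1, Mlxipl, Thrsp and Gpam, chosen by name as the enzymes and regulators of the pathway out of 55414 genes in the files, and they are set beside Adipoq, the adiponectin gene of fat cells, as a measure of the fat in each sample. All 10 were among the 17617 genes that passed the filter on low counts. The study asked whether moderate doses of X-rays alter abdominal aortic aneurysm, and sequenced poly(A)-selected RNA of 19 aortas, 1 library per mouse. All mice were male Apoe-/- mice on the C57Bl/6J background, 8 to 10 weeks old when an osmotic pump releasing AngII was implanted. D-3 IR mice (n = 7) received 1 Gy to the whole body 3 days before implantation, D+1 IR mice (n = 7) received 1 Gy on the day after it, and control mice (n = 5) received the anaesthetic alone. No group without Apoe deletion or without AngII was sequenced. Mice for tissue analyses were killed on day 7 of the infusion, and the study's account of the sequencing names no day.

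Fatty acid synthesis turns citrate exported from mitochondria into palmitate in the cytosol. Acly, ATP citrate lyase, releases acetyl-CoA, Acaca, acetyl-CoA carboxylase, makes malonyl-CoA from it, and Fasn, fatty acid synthase, builds the chain with NADPH that Me1, malic enzyme, helps to supply. Elovl6 lengthens palmitate, Scd1 adds a double bond, and Gpam joins the acyl chain to glycerol phosphate in the first step of triglyceride synthesis. Srebf1 and Mlxipl encode SREBP-1 and ChREBP, transcription factors that switch the pathway on after insulin and sugar, and Thrsp encodes Spot 14, a small protein of lipogenic tissues. The pathway is most active in liver and fat, and the aorta is surrounded by perivascular fat that includes brown-like adipocytes.

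The 10 genes together took 0.551% to 4.72% of all counts in genes in D-3 IR libraries (median 1.87%), 1.77% to 5.88% in D+1 IR libraries (median 5.08%) and 0.136% to 6.49% in control libraries (median 2.10%). The lowest share was that of control 6 (95% Wilson interval 0.135% to 0.137%) and the highest that of control 4 (6.48% to 6.50%), intervals that cover counting error only. Both ends of the range were thus control mice. Depth was 25839001 to 97083681 counts in genes per library (median 39641963). The smooth muscle gene Acta2, a defining marker of aortic wall, was found in every library, at 5823 to 15562 CPM (counts scaled to library size with TMM factors) in D-3 IR, 698 to 10948 CPM in D+1 IR and 3159 to 18521 CPM in control. Summed over 17 white adipocyte markers, levels were 5023 to 13173 CPM in D-3 IR, 4261 to 25729 CPM in D+1 IR and 864 to 15364 CPM in control, and over 16 brown adipocyte markers 628 to 4945, 1111 to 9575 and 374 to 6351 CPM in the same groups. In bulk tissue, fewer fat cells and less RNA of a gene per fat cell cannot be told apart. The D+1 IR libraries 1, 2 and 3 have file names with another series number than the rest, and values without them are given beside the results.

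The 10 genes lie on 6 chromosomes of GRCm38, with 4 on chromosome 11: Fasn at chr11:120805846-120824547, Acaca at chr11:84129672-84401651, Acly at chr11:100476353-100528000 and Srebf1 at chr11:60199089-60222581. Scd1 is at chr19:44394455-44407879, Gpam at chr19:55067268-55127238, Elovl6 at chr3:129532355-129638495, Me1 at chr9:86581371-86695953, Mlxipl at chr5:135089890-135138382 and Thrsp at chr7:97412938-97417730. Counts cover the exons of each gene. Reads of the second strand made up 49.87% to 50.14%, although the study names a stranded library kit. Strand could thus not separate overlapping genes, and Srebf1 shares 109 exon bases (1.93% of its exons) with Rai1 on the opposite strand. Mlxipl shares 235 exon bases (4.24%) with the antisense gene Gm43500. Scd1 has the close copies Scd2, Scd3 and Scd4, and reads that fit several of these genes could be missing from its counts.

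RefSeq promoter windows of GRCm38.p6, from 250 bases before to 50 after a start site, were available for 9 of the 10 genes, with 14 windows in all. They were searched on both strands for the sterol regulatory element that SREBP binds (TCACNCCAC), the E-box (CACGTG, which reads the same on both strands), the NF-Y box (CCAAT) and the Sp1 box (GGGCGG). An NF-Y box was present in 8 of the 14 windows, those of 7 genes, against 37.4% of all 32851 windows, and an Sp1 box in 6 windows of 5 genes, against 35.7% of all windows. The sterol regulatory element was found in 1 window and the E-box in 1 window, both of Mlxipl, against 1.24% and 7.15% of all windows. The 250 bases before the start site are shown for Fasn and Thrsp, each with paired NF-Y boxes, and for both windows of Mlxipl, with NF-Y boxes, E-box and sterol regulatory element in capitals. The 2 rightmost NF-Y boxes of Fasn overlap on opposite strands. The only window of Acaca, which held none of these motifs, lay inside the gene (upstream bases chr11:84195188-84195437, gene start 84129672). A match describes the letters only.
Fasn, minus strand, chr11:120824548-120824797: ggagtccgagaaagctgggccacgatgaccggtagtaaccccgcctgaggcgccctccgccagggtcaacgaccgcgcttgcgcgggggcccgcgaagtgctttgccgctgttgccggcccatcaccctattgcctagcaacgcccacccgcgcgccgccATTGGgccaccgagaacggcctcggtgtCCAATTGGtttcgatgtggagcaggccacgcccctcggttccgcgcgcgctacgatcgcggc
Thrsp, minus strand, chr7:97417551-97417800: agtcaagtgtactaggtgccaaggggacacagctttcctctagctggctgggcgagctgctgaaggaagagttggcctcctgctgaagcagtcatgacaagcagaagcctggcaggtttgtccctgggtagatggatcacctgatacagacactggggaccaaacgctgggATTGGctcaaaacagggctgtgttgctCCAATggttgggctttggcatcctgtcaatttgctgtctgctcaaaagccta
Mlxipl, plus strand, chr5:135089640-135089889: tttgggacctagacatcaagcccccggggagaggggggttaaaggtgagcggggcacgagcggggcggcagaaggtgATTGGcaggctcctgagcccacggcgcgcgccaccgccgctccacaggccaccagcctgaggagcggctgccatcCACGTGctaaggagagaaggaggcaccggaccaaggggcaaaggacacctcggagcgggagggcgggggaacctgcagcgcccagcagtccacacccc
Mlxipl, inner start site, plus strand, chr5:135106641-135106890: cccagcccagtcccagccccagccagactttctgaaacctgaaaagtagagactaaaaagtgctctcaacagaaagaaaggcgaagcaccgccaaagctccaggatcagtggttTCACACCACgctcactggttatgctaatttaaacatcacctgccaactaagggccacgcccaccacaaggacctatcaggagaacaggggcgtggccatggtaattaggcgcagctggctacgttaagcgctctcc

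Scd1 was the most abundant of the 10 genes per length, with a mean of 3611 CPM per kb of exon over the 19 libraries, followed by Fasn (725 CPM per kb), Thrsp (575), Acly (297), Me1 (145), Elovl6 (65.0), Srebf1 (47.4), Acaca (45.8), Gpam (33.2) and Mlxipl (12.5). Scd1 stood above Fasn, Acly above Me1, Me1 above Elovl6 and Gpam above Mlxipl in 19 of 19 libraries, and Thrsp above Acly in 18. The order of Fasn and Thrsp held in 14 libraries, of Elovl6 and Srebf1 in 11, of Srebf1 and Acaca in 14 and of Acaca and Gpam in 15, and the SDs of these neighbours overlap. Length was that of all annotated exons merged, 17074 bases for Acaca, which can exceed the length of a single transcript.

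Among the enzymes, Fasn had 1031, 4634 and 13701 CPM (lowest, median, highest) in D-3 IR, then 2333, 14278 and 18312 CPM in D+1 IR, and 18925, 5934, 299, 3946 and 2426 CPM in the 5 control libraries 4, 5, 6, 8 and 9. Control 4 was the highest and control 6 the lowest of all 19 libraries, so the control group enclosed both irradiated groups. The highest level was 63.2-fold the lowest, and 18.4-fold with control 6 left out. Fasn averaged 6120 ± 4046 CPM in D-3 IR, 10912 ± 7059 CPM in D+1 IR and 6306 ± 7350 CPM in control (SD), with the control SD larger than its mean.

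Scd1 had 2556, 12240 and 28064 CPM in D-3 IR, then 10027, 25191 and 35677 CPM in D+1 IR, while the control libraries had 36124, 13586, 646, 11385 and 10785 CPM. Acly had 309, 1032 and 2270 CPM in D-3 IR, then 542, 2161 and 4040 CPM in D+1 IR, against 4938, 1197, 147, 1332 and 500 CPM in control. In both, control 4 was above and control 6 below every irradiated aorta. Acaca had 134, 524 and 1374 CPM in D-3 IR, then 280, 1327 and 1734 CPM in D+1 IR, and 1723, 591, 52.1, 437 and 272 CPM in control, with D+1 IR 1 highest. The remaining enzymes showed the same picture of wide and overlapping groups. Me1 spanned 174 to 628 CPM in D-3 IR, 201 to 1237 CPM in D+1 IR and 91.1 to 1613 CPM in control, and Elovl6 93.5 to 621 CPM in D-3 IR, 151 to 1060 CPM in D+1 IR and 24.0 to 957 CPM in control. Gpam, at the entry to triglycerides, had 49.5, 133 and 419 CPM in D-3 IR, then 113, 392 and 495 CPM in D+1 IR and 250.3, 187, 30.4, 100 and 124 CPM in control. Here 4 of the 7 D+1 IR libraries (1, 2, 3 and 19) lay above every control library, and 1, 2 and 3 are those with the other series number.

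Among the regulators, Srebf1 varied least of the 10 genes. It had 163, 186 and 297 CPM in D-3 IR, then 237, 296 and 481 CPM in D+1 IR and 423, 293, 112, 177 and 173 CPM in control, with the highest level 4.29-fold the lowest. The 3 highest D+1 IR libraries were 1, 2 and 3. Mlxipl, at 27.6, 39.8 and 85.7 CPM in D-3 IR, then 30.3, 125 and 145 CPM in D+1 IR and 194, 79.8, 4.52, 27.7 and 19.4 CPM in control, spanned 42.6-fold. Thrsp spanned 323 to 1479 CPM in D-3 IR, 441 to 3004 CPM in D+1 IR and 72.4 to 3654 CPM in control. Within D+1 IR, Mlxipl split into a higher set (libraries 1, 2, 3 and 19) and a lower set (17, 18 and 20) with no library between 34.8 and 125 CPM. Mitochondrial genome transcripts took 14.1% to 22.9% of counts in the higher set and 4.49% to 8.04% in the lower. D-3 IR 10, at 14.4%, had the lowest Mlxipl of its group, and a link was not tested. Control 6 was the lowest library for each of the 10 genes, and also for Adipoq, at 21.3 CPM.

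**Figure D1:**
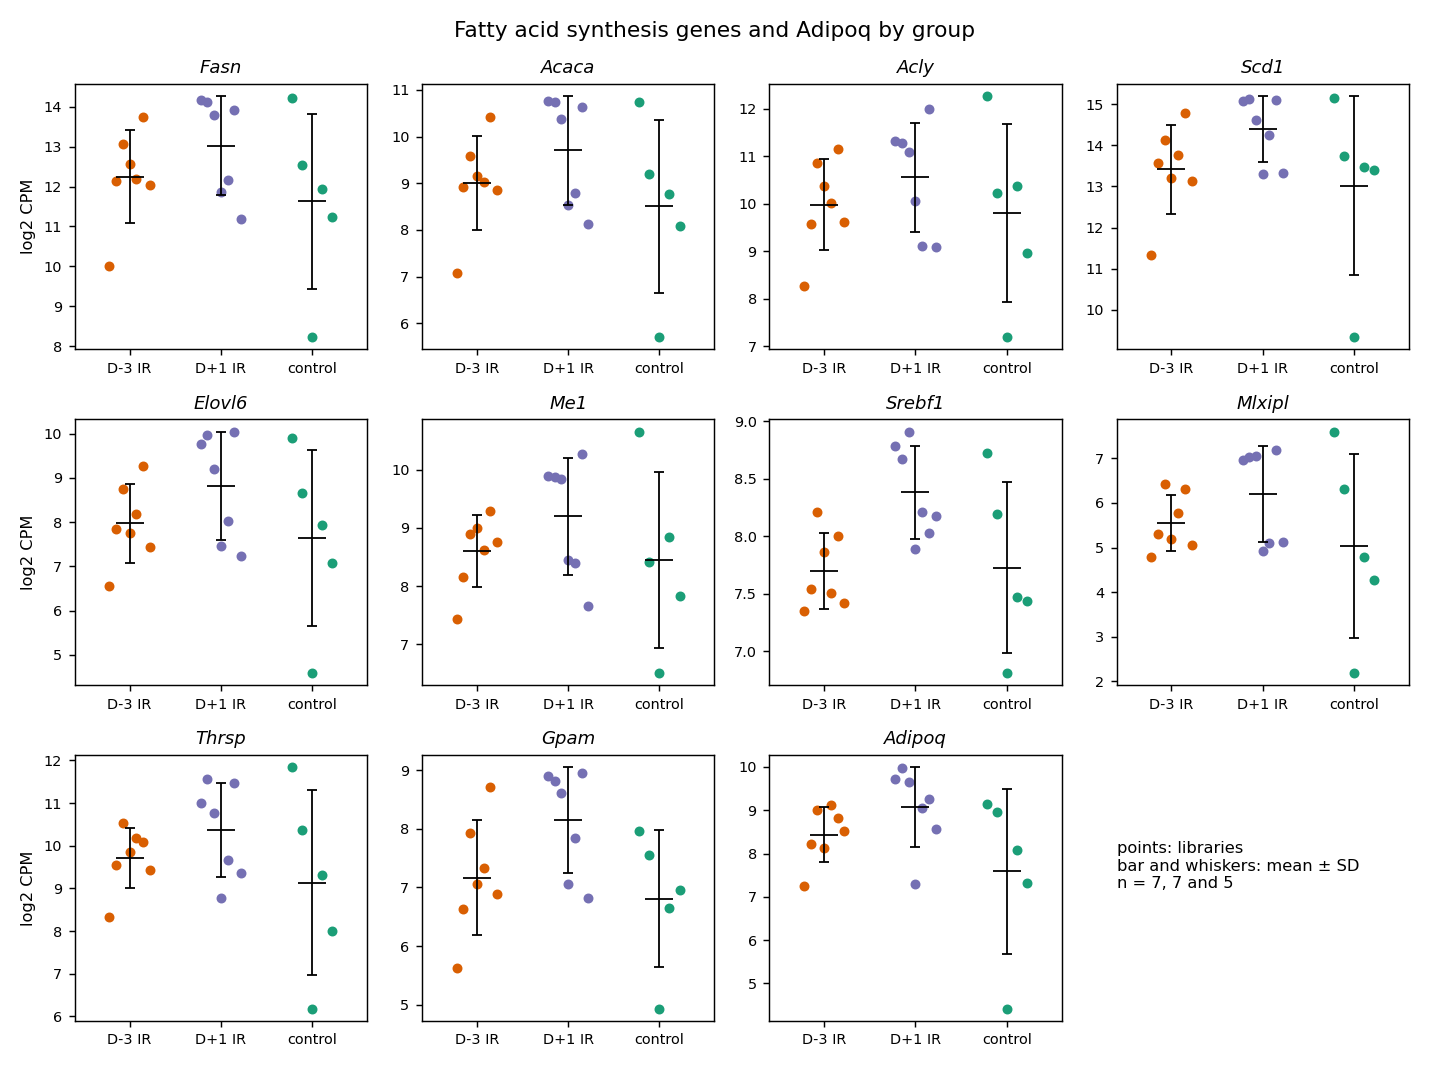
Log2 CPM (TMM, prior count 2) of the 10 fatty acid synthesis genes and Adipoq in each library of D-3 IR (n = 7), D+1 IR (n = 7) and control (n = 5). Points are libraries, and the bar with whiskers is the mean ± SD. For every gene the control point at the bottom is control 6, and the groups overlap.

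Between groups, no member passed edgeR's test at an adjusted p under 0.05, and limma voom called 2 of them in D-3 IR versus D+1 IR. In D+1 IR versus control, all 10 genes had positive log2 fold changes, 0.24 (Acly) to 1.24 (Gpam, standard error 0.54), with a median of 0.64 against -0.04 over all 17617 genes. Gpam alone had an unadjusted p under 0.05 (0.034, adjusted p = 0.644 by edgeR), while 2.28% of all genes had such a p with a positive change. In D-3 IR versus D+1 IR, which shares the D+1 IR libraries with that comparison, all 10 were negative, -0.998 (Elovl6, standard error 0.62) to -0.69 (Acly), with a median of -0.83 against -0.04 over all genes. By edgeR, Srebf1 had the smallest p (0.0141, adjusted p = 0.409), at -0.70 ± 0.26 (standard error) on the log2 scale, and 4.75% of all genes had an unadjusted p under 0.05 with a negative change. In D-3 IR versus control, which shares the control libraries, 2 genes were positive and 8 negative, -0.45 (Acly) to 0.34 (Gpam), with a median of -0.21 against -0.03 over all genes and no p under 0.05. Adipoq itself had log2 fold changes of 0.30 (standard error 0.55) in D-3 IR versus control, 1.03 (0.57) in D+1 IR versus control and -0.73 (0.50) in D-3 IR versus D+1 IR. In D+1 IR versus control, 12 of 12 lipolysis and lipid droplet genes were also positive (median 0.91). So were 15 of 17 white adipocyte markers (0.96), 14 of 15 brown adipocyte markers (0.91) and 14 of 15 mitochondrial fatty acid oxidation genes (0.90). Cholesterol synthesis genes were positive for 6 of 19 (median -0.18). In D-3 IR versus D+1 IR, 17 of 17 white adipocyte markers were negative (median -0.74).

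At an adjusted p under 0.05, edgeR's quasi-likelihood test called 0% of the 17617 genes in each comparison, while 1.32%, 7.11% and 11.5% of genes had an unadjusted p under 0.05 in D-3 IR versus control, D+1 IR versus control and D-3 IR versus D+1 IR. DESeq2 called 0%, 0.0114% and 0.319%, and no member. limma voom with sample weights called 13% of genes in D-3 IR versus D+1 IR and none in the others, among them Srebf1 (log2 fold change -0.74, adjusted p = 0.0389) and Gpam (-1.38, adjusted p = 0.0362), and 0 genes in the same comparison without the D+1 IR libraries 1, 2 and 3. For no member were 2 groups free of overlap, as 0.0114%, 0.136% and 0.159% of all genes were. Smooth muscle markers, summed at 10116 to 25677 CPM in D-3 IR, 1543 to 17119 CPM in D+1 IR and 5837 to 30591 CPM in control, had positive log2 fold changes for 10 of 10 markers in D-3 IR versus D+1 IR, where the fatty acid synthesis genes were negative. In the same comparison, 8 of 8 erythroid and 10 of 10 skeletal muscle markers were positive, and 7 of 7 hepatocyte markers tested were negative (median -2.07). In D+1 IR versus control, the 7 hepatocyte markers were all positive (median 2.10). The part of these markers in the members' values was not tested.

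The direction in D-3 IR versus control turned with single control libraries. Without control 4, all 10 genes were positive (0.17 to 0.96), and without control 6, 9 of 10 were negative (-0.74 to 0.08). In D+1 IR versus control 9 or 10 of the 10 genes stayed positive without any single library, and 7 when D+1 IR 1, 2 and 3 were left out together. The median of the 10 genes there was 1.50 without control 4, 0.40 without control 6 and 0.10 without these 3 libraries. In D-3 IR versus D+1 IR the 10 genes stayed negative in edgeR without these 3 libraries, between -0.49 and -0.09, while limma voom then put Acly at 0.18.

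With the Adipoq level in the fit, the differences between the irradiated groups were smaller for all 10 genes. In D-3 IR versus D+1 IR, Fasn stood at -0.06 ± 0.39 (log2 fold change and standard error) at equal Adipoq, against -0.83 (0.70) without that term, and Thrsp -0.04 (0.30) against -0.85 (0.63). Srebf1 kept -0.46 (0.17, unadjusted p = 0.0133, adjusted p = 0.584 by edgeR) and Gpam -0.45 (0.30). In D+1 IR versus control, 8 of 10 genes were negative at equal Adipoq, with Gpam (0.32, standard error 0.38) and Srebf1 (0.13, 0.20) positive. In D-3 IR versus control all 10 were negative, -0.63 (Acly) to -0.13 (Gpam), with a smallest adjusted p of 0.938 by edgeR. Their median there was -0.44 at equal Adipoq, farther from 0 than the -0.21 without that term. edgeR called 0 of 17617 genes in each of these fits, with 395, 187 and 1275 genes at an unadjusted p under 0.05 in D-3 IR versus control, D+1 IR versus control and D-3 IR versus D+1 IR.

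**Figure D2:**
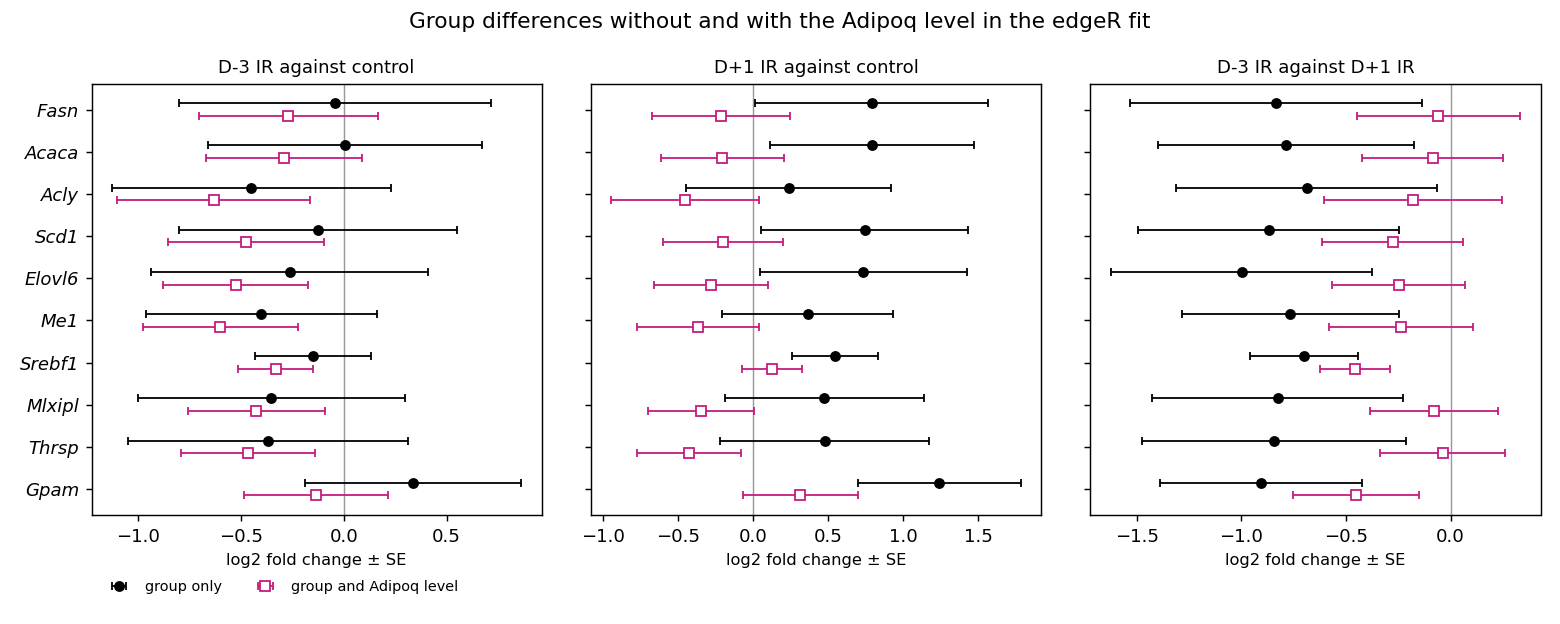
Log2 fold change ± standard error from edgeR for the 10 genes in D-3 IR versus control, D+1 IR versus control and D-3 IR versus D+1 IR. Black circles are from the fit with the group only and open squares from the fit with group and Adipoq level, which lie nearer 0 in D-3 IR versus D+1 IR, where Srebf1 and Gpam lie farthest from 0 among the squares.

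The levels of all 10 genes rose with that of Adipoq. Held for group, the slope of log2 CPM on the log2 CPM of Adipoq was positive and past the threshold for 10 of 10 genes (edgeR, largest adjusted p = 0.00393), as for 8.66% of the 17616 other genes tested, with 1.73% negative. A slope of 1 means that the ratio of the gene to Adipoq had no trend with the Adipoq level. The ratio could still differ between libraries, as that of Mlxipl did, from 0.064 to 0.345. Fasn had a slope of 1.13 (standard error 0.18), Thrsp 1.07 (0.13), Scd1 1.05 (0.16), Elovl6 1.05 (0.14), Mlxipl 1.00 (0.13) and Acaca 0.99 (0.15), while Acly had 0.89 (0.19), Me1 0.73 (0.14) and Gpam 0.71 (0.13). Srebf1 had the lowest slope, 0.35 (0.065). The median over the 10 genes was 0.99, against -0.05 over all genes. Slopes on Plin1, the perilipin of fat droplets, were 0.32 to 1.10, and on the mean of the white adipocyte markers 0.45 to 1.42, with each of the 10 genes past the threshold. With Ucp1, the uncoupling protein of brown fat, as a further term, the slopes on Adipoq were 0.09 (Gpam) to 0.73 (Thrsp) and 0 of the 10 genes passed in edgeR, with 5 of them and 847 of all genes at an unadjusted p under 0.05, while 18 genes passed in all. Ucp1 itself had a slope of 1.10 (0.17) on Adipoq, so the levels of both fat markers moved together.

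Across the 19 libraries, the correlation with Adipoq was highest for Thrsp (Pearson's r = 0.927, Spearman's rho = 0.923) and lowest for Acly (r = 0.783, rho = 0.733), with adjusted p of at most 0.00427 for each member in two-sided permutation tests over 17616 genes, of which 12.0% correlated positively at an adjusted p under 0.05. Control 6 and D-3 IR 10 lay farthest from the median of Adipoq. Without them, r was 0.585 for Acly (permutation p = 0.0133) to 0.864 for Thrsp. Without the D+1 IR libraries 1, 2 and 3 it was 0.733 (Me1) to 0.911 (Thrsp). Within D-3 IR, r was 0.516 (Srebf1) to 0.915 (Thrsp), and within D+1 IR 0.531 (Acly) to 0.872 (Thrsp). No r is given within control, whose 5 libraries are fewer than the minimum of 6 set for a correlation.

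**Figure D3:**
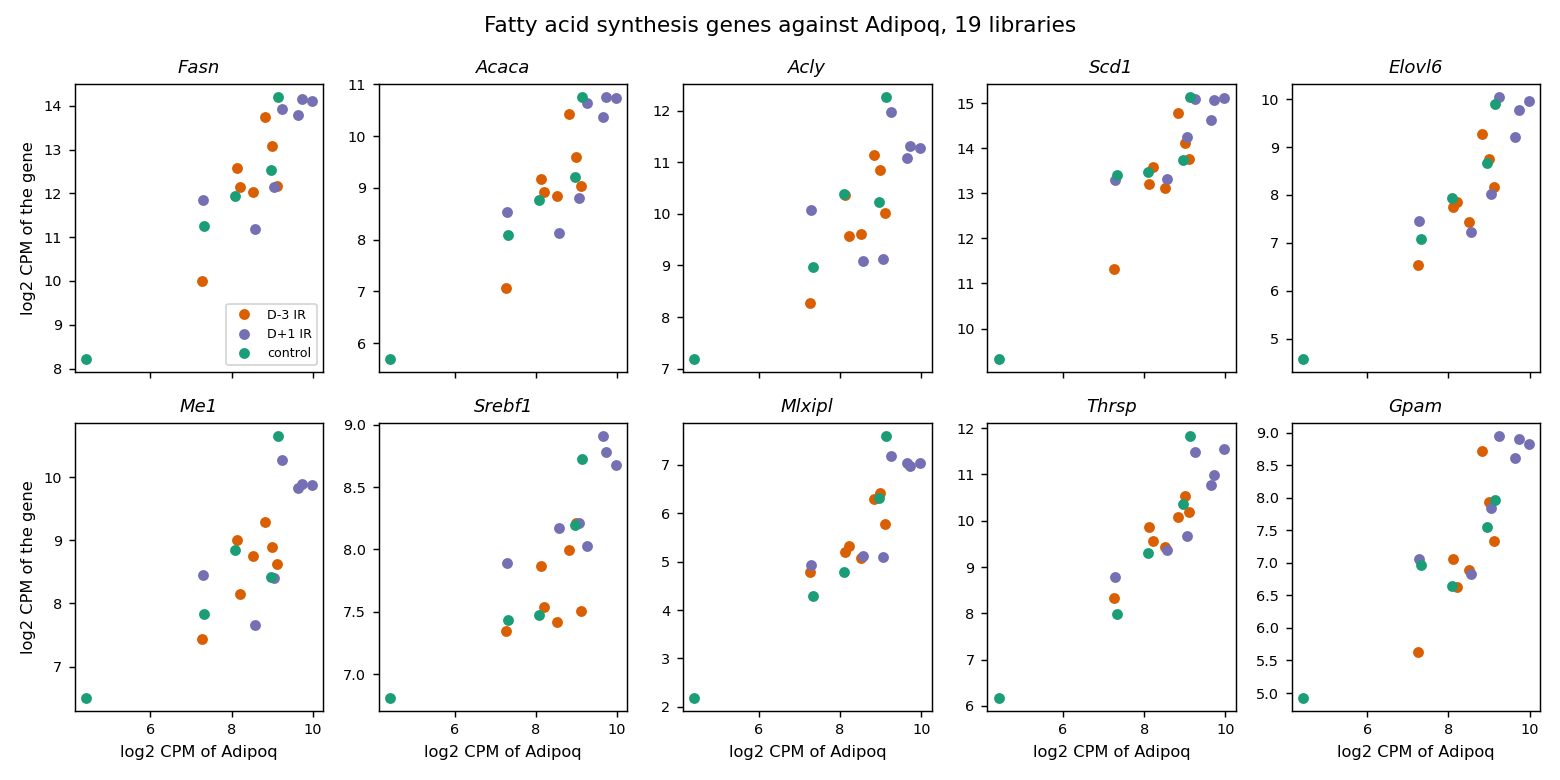
Log2 CPM of each of the 10 genes (vertical) against log2 CPM of Adipoq (horizontal) in 19 libraries, coloured by group. All 10 rise from control 6 at the left, with Srebf1 over the smallest range and Acly with the widest scatter at a given Adipoq level.

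The 3 groups accounted for 6.70% (Acly) to 34.3% (Srebf1) of the variance of log2 CPM. Adipoq alone, without a group term, accounted for 61.3% (Acly) to 85.9% (Thrsp), taken as the square of Pearson's r. For Gpam the groups held 27.0%, and for each of the other 8 genes at most 17.4%. The ratio of CPM to that of Adipoq, which moves with Adipoq for a gene whose slope is not 1, differed between libraries. For Acly the ratio was 1.05 in D+1 IR 18 and 1.43 in D+1 IR 20, but 6.86 in D+1 IR 17, 6.64 in D+1 IR 19 and 8.77 in control 4. For Srebf1 the order of these D+1 IR mice was another, with ratios of 0.56, 0.76, 1.52 and 0.43 in D+1 IR 18, 20, 17 and 19. For Fasn the ratio ran 6.15 (D+1 IR 20) to 33.6 (control 4), a 5.46-fold range, and for Scd1 16.7 (D-3 IR 10) to 67.2 (control 9), a 4.03-fold range. In control 6, the library with least Adipoq, Srebf1 had a ratio of 5.27, Me1 4.28 and Gpam 1.43, the highest of any library for each, while Fasn (14.1) and Scd1 (30.3) lay near their medians of 15.3 and 35.4.

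**Figure D4:**
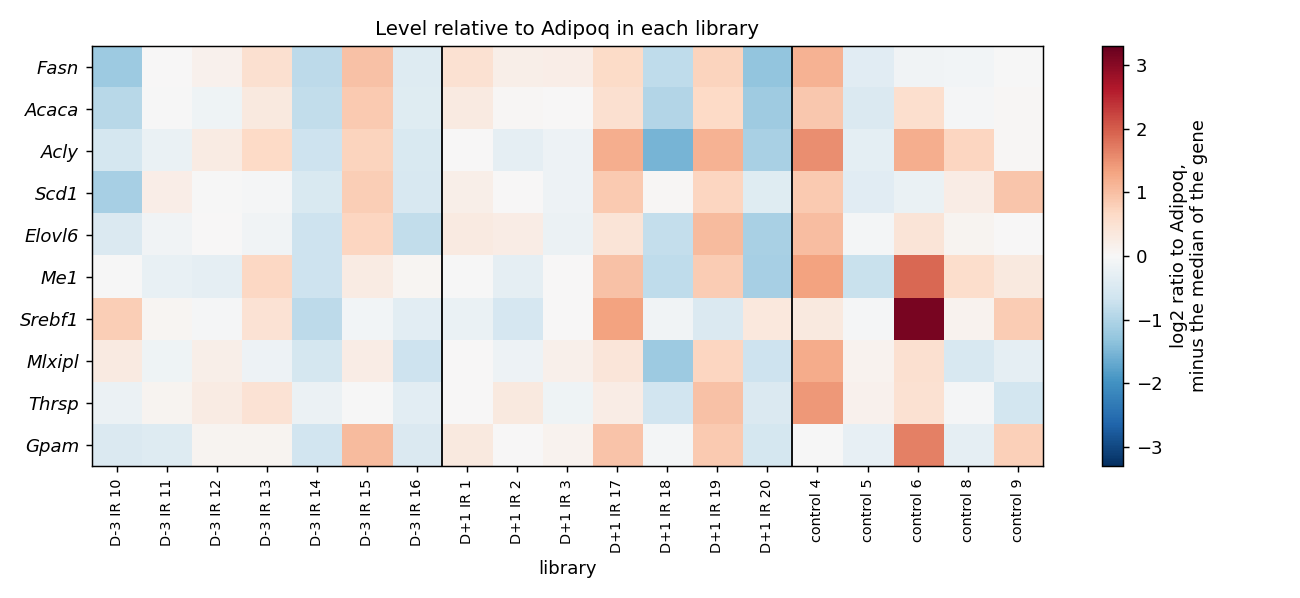
Log2 ratio of each gene to Adipoq in each library, less the median of that gene over 19 libraries (colour, red above and blue below the median). Columns are D-3 IR, D+1 IR and control libraries. Control 4, control 6, D-3 IR 15, D+1 IR 19 and D+1 IR 17 are among the libraries above the median for most genes. D+1 IR 18, D+1 IR 20 and D-3 IR 14 are among those below, and the darkest cell is Srebf1 in control 6.

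The 10 genes kept closely together from library to library. Over the 45 pairs, r of log2 CPM was 0.747 (Acly and Srebf1) to 0.997 (Fasn and Acaca), with a median of 0.936, as a description over the same 19 libraries, in which all pairs meet the same differences in depth and Adipoq level. Acetyl-CoA carboxylase and fatty acid synthase, consecutive steps, kept the most constant ratio: the log2 ratio of Fasn to Acaca had a median of 3.32 and an SD of 0.23. The 9 pairs with Srebf1 had an r of 0.747 to 0.848, all below the lowest of the other 36 pairs (0.863).

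The genes most like the mean of the 10, by r over the 19 libraries, were Acacb (r = 0.987), the mitochondrial acetyl-CoA carboxylase, Paqr9 (0.987), Tmem120b (0.986), Pygl (0.983), a glycogen phosphorylase, Agpat2 (0.983), the next enzyme of triglyceride synthesis, Pex11a (0.981), Pnpla3 (0.981), Lpin1 (0.980), Tkt (0.979), the transketolase of the pentose phosphate pathway, and Dhdh (0.975). Adipoq, at 0.905, was in place 364. Acly was closest to Acss2 (0.991), which makes acetyl-CoA from acetate, then to Me1 (0.968) and Insig1 (0.963), a sterol-regulated protein that retains SREBP in the endoplasmic reticulum. Me1 was also closest to Acss2 (0.970). Elovl6 was closest to Lpin1 (0.985), Mlxipl and Thrsp to Paqr9 (0.984 and 0.979), Scd1 to Sh2b2 (0.980) and Gpam to Fitm2 (0.975), which helps form lipid droplets. Srebf1 had no gene closer than Glul (0.932), glutamine synthetase.

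Outside the 10 genes, the slope on Adipoq was read in lists of other lipid genes, between which no difference was tested. Of 38 other genes of fatty acid synthesis, elongation and desaturation, 14 were positive and 0 negative at an adjusted p under 0.05 (edgeR), with a median slope of 0.08. Among them were Acacb at 1.15 (0.17), Pnpla3 at 1.16 (0.13), Nr1h3, the oxysterol receptor LXR alpha, at 0.51 (0.066) and Hsd17b12, an elongation enzyme, at 0.54 (0.085). The polyunsaturated fatty acid desaturases Fads1 (-0.25, 0.081) and Fads2 (-0.31, 0.10), Scd2 (0.13, 0.15) and Srebf2 (-0.24, 0.087), chosen after their values were seen, did not pass. Of 8 genes of cytosolic NADPH supply, 7 passed, with Tkt at 0.84 (0.13), Pgd at 0.68 (0.098) and Taldo1 at 0.58 (0.080), and the median slope was 0.52.

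Glycerolipid and triglyceride synthesis had 9 of 16 genes positive (median 0.48), with Dgat2, which makes the final triglyceride, at 1.07 (0.12) and Agpat2 at 1.06 (0.12). Lipolysis and lipid droplet genes had 11 of 12 (median 0.91), with Cidec at 1.00 (0.069) and Lipe, hormone-sensitive lipase, at 0.99 (0.075), and mitochondrial fatty acid oxidation 13 of 15 (median 0.75), with Acaa2 at 0.86 (0.12). In each of these lists some genes did not pass. Of 19 genes of cholesterol synthesis and its regulation by SREBP-2, Pmvk (0.47, 0.092) and Nsdhl (0.40, 0.12) passed, with a median slope of 0.05. White adipocyte markers other than Adipoq passed for 13 of 16 genes (median 0.84), and brown adipocyte markers for 11 of 15 (median 0.89), lists that share Cidec, Lipe and Plin1, and Cidea, with the lipid droplet list.

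**Figure D5:**
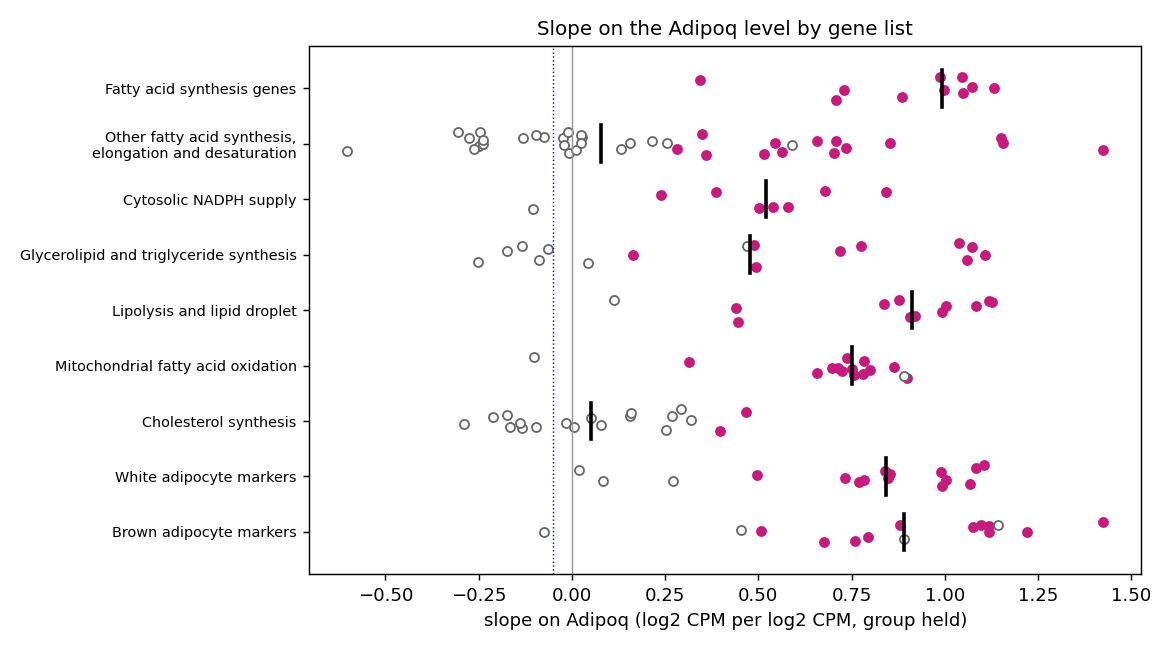
Slope of log2 CPM on the log2 CPM of Adipoq with the group held, from edgeR, for each gene of 9 lists. Filled points have an adjusted p under 0.05 over all genes, open points do not, bars are list medians and the dotted line is the median of all genes (-0.05). The 10 fatty acid synthesis genes, at the top, are all filled, and cholesterol synthesis genes lie around 0.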

How the data were processed

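RNA from abdominal aortas was sequenced in 19 libraries. Per the submitters' processing notes, the authors checked reads with FastQC and ran STAR 2.7.9a against GRCm38, and the deposited files hold raw counts of reads per gene for each library, without normalization. Analyses rest on the unstranded column, to which the joined table is equal in 773262 of 773262 values. Positions came from GENCODE M21, an earlier release than that of the files. Columns of strand-specific counts served only as a check of strand.

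Genes were filtered with the default of edgeR 4.0.16 (R 4.3.3), scaled by TMM and tested with two-sided quasi-likelihood F-tests in 1 fit of 3 groups, adjusted by Benjamini-Hochberg at 0.05. The same test gave the slope on Adipoq, with group held, and the group contrasts with the log2 CPM of Adipoq (prior count 2) as covariate. Correlations used permutation tests with 100000 resamples (numpy 2.4.6), the smallest p of which is 1e-05. The tests were tried on simulated data. The common biological coefficient of variation, 0.591, and not counting error limits precision at this depth.

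The members and gene lists were chosen with earlier results of these data known. Named are the 10 members and Adipoq, the 10 genes most like the members' mean, the 3 most like each member and up to 4 genes with the smallest p of each list, and genes picked by their values instead are marked so in the text. Alternatives were DESeq2 1.42.0, limma 3.58.1 voom with sample weights, the newer quasi-likelihood form, other scaling and filters, other fat markers and fits without libraries. Each library is 1 mouse.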

Additional observations from a re-analysis of the deposited data

How the results depend on the processing

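No paired analysis was possible because the groups hold different mice and have no replicate number in common. The slope on Adipoq was positive for each of the 10 genes in every alternative run, and past the threshold for 10 of 10 in 6 of 7 of them and without each library in turn, the exception being Ucp1 as a further covariate, where 0 members were called. The count of all genes called on the slope was 1830, 3068 without the group term, 18 with Ucp1 and 1088 without the D+1 IR libraries 1, 2 and 3. It was 1107 to 2397 without single libraries, lowest without control 4 and 1182 without D+1 IR 17. With Adipoq as covariate, D-3 IR versus D+1 IR had 0 to 7 genes called without single libraries, 7 without D+1 IR 19.

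DESeq2 called 2 genes in D+1 IR versus control, 56 in D-3 IR versus D+1 IR and 23 among the 3 groups, the newer quasi-likelihood form 1 among the 3 groups, and limma voom 2298 in D-3 IR versus D+1 IR, each against 0 in the report. In D-3 IR versus control the sign turned with limma voom for Fasn (0.24), Me1 (0.0121), Mlxipl (0.0309), Thrsp (0.0783) and Gpam (-0.0131), and for Acaca with DESeq2 (-0.0230), DESeq2 size factors (-0.0229) and the genes of the joined table alone (-0.00106). With limma voom and without the D+1 IR libraries 1, 2 and 3, an alternative chosen after seeing the data, the values were Fasn 0.29, Scd1 0.0121, Me1 0.0575, Mlxipl 0.0707 and Thrsp 0.131 in D-3 IR versus control, Acly -0.30 in D+1 IR versus control and Acly 0.18 in D-3 IR versus D+1 IR. In D+1 IR versus control, edgeR without these libraries gave Acly -0.0530, Me1 -0.0271 and Mlxipl -0.0821.

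Without single libraries, log2 fold changes in D-3 IR versus control ranged over -0.38 to 0.96 (Fasn), -0.32 to 0.87 (Acaca), -0.74 to 0.58 (Acly), -0.43 to 0.55 (Scd1), -0.56 to 0.54 (Elovl6), -0.67 to 0.56 (Me1), -0.33 to 0.17 (Srebf1), -0.65 to 0.64 (Mlxipl), -0.67 to 0.69 (Thrsp) and -0.0468 to 0.66 (Gpam), the upper ends without control 4. Acly ranged over -0.0578 to 1.27 in D+1 IR versus control. The cause was not tested. At this depth counting error is small, and the spread between 5 to 7 mice per group limits every comparison.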

Other observations

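Markers of other cell types were set beside Adipoq in the same way. None of 10 smooth muscle markers had a positive slope on Adipoq at an adjusted p under 0.05 (edgeR) and 1, Des, had a negative slope, with a median slope of -0.38. Macrophage markers had 0 positive and 1 negative, Mertk, of 11 (median -0.09). Endothelial markers had 2 of 10 positive, Cdh5 and Kdr (median 0.22). Of 7 hepatocyte markers tested Cyp2e1, which fat cells also express, was positive (median -0.06), and of 4 adrenal cortex markers Scarb1 and Mc2r (median 0.39), while Cyp11b2, Hsd3b1, Cyp21a1 and Akr1b7 were at 0 in 10 or more libraries. Skeletal muscle, Schwann cell and erythroid markers had 0 called in either direction, with median slopes of 0.05, -0.35 and -0.07.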
